A study of Mus musculus with 16 samples.

Results

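Complement is a cascade of plasma and tissue proteins, and 9 of its genes were followed in the aorta of ApoE-/- mice: C1qa, C1qb, C1qc, C1ra, C1s1, Serping1, C4b, C3 and C3ar1. They were chosen by name with earlier results of these data known, so counts of members beside all loci are descriptive. Each was read from the locus of that name with the highest mean expression over all libraries. All 9 were among the 24091 loci tested, of 70603 deposited. ApoE-/- mice lack apolipoprotein E, which carries lipoprotein remnants to the liver, and develop atherosclerosis. From the age of 8 weeks they ate either a Western diet or a purified normal diet, for 22 weeks (to the age of 30 weeks) or for 6 weeks (to the age of 14 weeks), and RNA of the aorta was sequenced in bulk. The 4 groups had 4 libraries each: Western diet for 22 weeks (AS22W in the labels), normal diet for 22 weeks (Sham22W), Western diet for 6 weeks (AS6W) and normal diet for 6 weeks (Sham6W). All 16 libraries are from ApoE-deficient mice, which the genotype field calls APOE knockdown, and no wild-type group is part of the comparison, so the normal diet is a control for the diet and not for the genotype. The labels do not say whether a library is 1 animal or a pool, so p-values measure the spread between these libraries, which may be technical.

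In the classical pathway, C1q, a molecule built from the A, B and C chains that C1qa, C1qb and C1qc encode, binds antibodies, dying cells or modified lipoproteins. The proteases C1r and C1s bound to it then cut C4, and C4 with C2 forms the enzyme that cuts C3. C3 is the point at which the classical, lectin and alternative pathways meet. Cleaved C3 marks surfaces for uptake, and its small fragment C3a acts on the receptor that C3ar1 encodes. Serping1 encodes the C1 inhibitor, which stops C1r and C1s. In tissues C1q is made mainly by macrophages and related cells, whereas C3, C4, C1r, C1s and the C1 inhibitor are made mainly in the liver and also by fibroblasts and other stromal cells.

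The deposited estimated counts summed to between 44.9 and 80.9 in units of 1e6 per library. Levels within a gene are given as counts per 1e6 counts scaled by edgeR's trimmed mean of M-values (CPM), with the values of replicates 1 to 4 in that order. Differences are log2 fold changes ± standard error (SE) from edgeR's quasi-likelihood test, and a locus passed at a Benjamini-Hochberg adjusted p under 0.05 over all 24091 loci. The tissue label was checked against 8 smooth muscle markers, whose summed level was 4447 to 7620 CPM in AS22W, 5850 to 11328 CPM in Sham22W, 8713 to 9905 CPM in AS6W and 9825 to 13144 CPM in Sham6W. Markers of adipocytes, brown fat, skeletal muscle, lymphocytes and red cells were detected too. Their calls between the groups are given after the members' values, with summed levels for some of these cell types. The libraries of 22 and of 6 weeks also carry different code stems in the labels, so this code and the time on diet cannot be told apart in the comparisons of 22 with 6 weeks. Each diet comparison lies within 1 code stem. In bulk tissue, more cells of a type and more RNA per cell cannot be told apart.

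Compared between genes on the length-corrected scale of the deposited FPKM values, C3 had by far the highest level, at 193 ± 43.2 FPKM (SD over 16 libraries). It was followed by C1qb at 74.2 ± 46.7, C4b at 59.4 ± 34.2, Serping1 at 46.6 ± 5.09 and C1qa at 44.7 ± 21.3 FPKM. C1s1 had 27.7 ± 2.97, C1qc 18.5 ± 13.9, C1ra 10.8 ± 1.66 and C3ar1 4.25 ± 2.65 FPKM. The gap between C3 and C1qb and that between C1ra and C3ar1 exceeded the SD of either neighbour, whereas all other neighbours in this order lay within the larger of their 2 SDs. The SD was largest relative to the mean for C1qc, C1qb, C3ar1 and C4b and smallest for C1s1 and Serping1.

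The larger differences were those with time, in which the length of the diet and the age of the mice cannot be told apart. After 22 weeks compared with 6 weeks, 6 of the 9 members rose on the Western diet (C1qa, C1qb, C1qc, C1ra, C3 and C4b) and 5 on the normal diet (C1qa, C1qb, C1ra, C3 and C4b), and none fell. Each group enters 1 time comparison and 1 diet comparison, so the comparisons share libraries. The background was high, since 43.8% of all loci passed in the Western-diet comparison (21.9% higher and 21.9% lower) and 46.7% in the normal-diet comparison (24% higher and 22.6% lower). The median log2 fold change of the 9 members was 1.05 on the Western diet and 0.73 on the normal diet, beside medians over all loci of -0.02 and 0.02. The scaling of FPKM values put all loci lower at 22 weeks than edgeR's scaling did, by a median of -0.19 (log2) on the Western diet and -0.18 on the normal diet, so the share of passing loci that were higher was 31.3% instead of 49.9% on the Western diet and 34.9% instead of 51.5% on the normal diet. On that scale limma called 5 members higher on the Western diet (C1qa, C1qb, C3, C4b and C3ar1) and 1 lower (Serping1). C1qc and C1ra were not called there. For the normal diet it called 4 higher (C1qa, C1qb, C3 and C4b), without C1ra. The shares of all loci were 15.2% higher and 33.4% lower on the Western diet and 17.6% higher and 32.9% lower on the normal diet.

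For Western against normal diet, no member passed at 22 weeks or at 6 weeks with edgeR, and none passed the test of whether the diet effect differed between the times. The background was low, with 0.228% of loci passing at 22 weeks (0.174% higher and 0.054% lower on the Western diet), 0.282% at 6 weeks (0.0623% higher and 0.22% lower) and 0.183% in the test of the difference (0.145% higher and 0.0374% lower). At an unadjusted p under 0.05 there were 3 members at 22 weeks (C1qb, C1qc and C3ar1), 2 at 6 weeks (C4b and C3ar1) and 1 in the difference (C4b), that is 33.3%, 22.2% and 11.1% of the members beside 14.3%, 10.7% and 12% of all loci. DESeq2 called C1qc at 22 weeks, no member at 6 weeks, and C4b in the difference, and with DESeq2 4.17%, 2.26% and 2.56% of the loci given an adjusted p passed in these comparisons. The median log2 fold change of the members was 0.24 at 22 weeks and 0.24 at 6 weeks, beside -0.03 and 0.00 over all loci. Of the loci that passed at 6 weeks, 22.1% were higher on the Western diet, against 34.4% with limma on the FPKM scale.

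**Figure D1:**
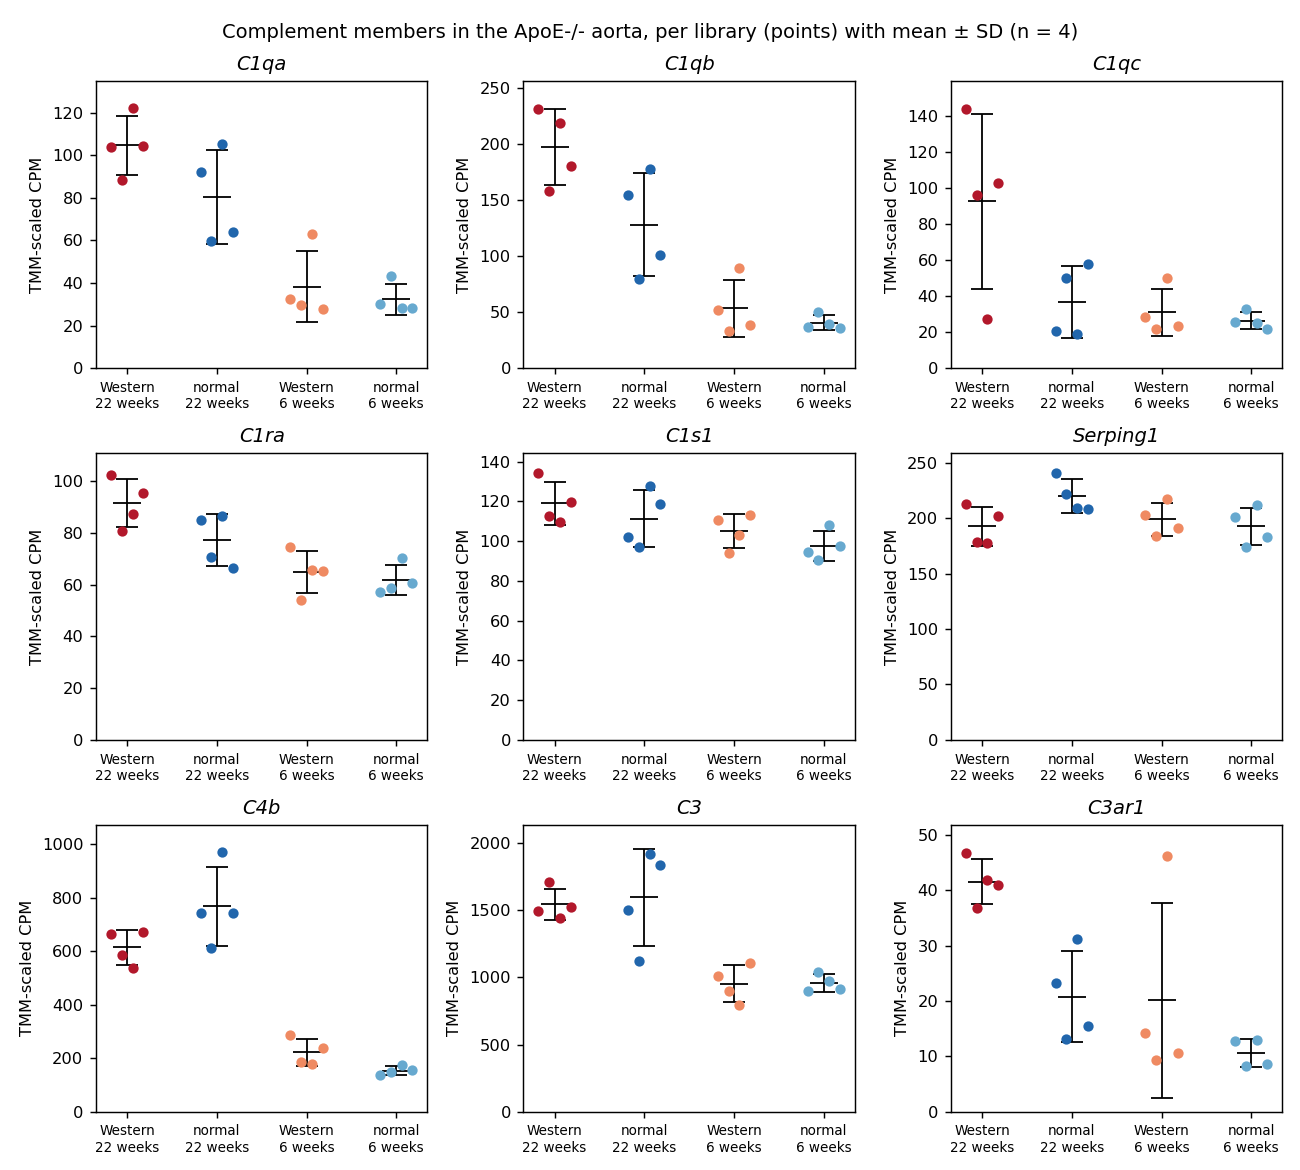
TMM-scaled CPM of the 9 members in every library, with a panel for each gene, points for the 4 libraries of each group and bars for the mean ± SD (n = 4). C1qa, C1qb, C3 and C4b of both 22-week groups sit above their 6-week groups, C1qc splits within the 22-week groups, and 1 AS6W library stands at 46.2 CPM for C3ar1.

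With time, the C1q chains C1qa and C1qb rose on both diets, and C1qc rose on the Western diet. C1qa had 104, 88.4, 122 and 104 CPM in AS22W, against 92.4, 59.7, 105 and 63.8 CPM in Sham22W. It had 32.7, 29.5, 63.2 and 27.7 CPM in AS6W, against 30.1, 43.3, 28.4 and 28.1 CPM in Sham6W. On both diets the groups of 22 and 6 weeks did not overlap. Of all loci, 20.1% had no overlap with 22 weeks above and 20.4% with 22 weeks below on the Western diet, and 22.1% and 21.9% on the normal diet. C1qa rose by 1.45 ± 0.26 on the Western diet (edgeR, adjusted p = 0.000366) and by 1.31 ± 0.26 on the normal diet (adjusted p = 0.000761). The diet groups overlapped at both times, with log2 fold changes of 0.38 ± 0.25 at 22 weeks (edgeR, adjusted p = 0.536) and 0.24 ± 0.25 at 6 weeks (adjusted p = 0.836). At 6 weeks the sign rested on AS6W replicate 3, without which the value was -0.12.

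C1qb had 231, 158, 219 and 179.8 CPM in AS22W, against 155, 79.1, 177 and 101 CPM in Sham22W. At 6 weeks it had 52.0, 33.0, 89.1 and 38.8 CPM in AS6W, against 36.9, 50.2, 39.8 and 35.6 CPM in Sham6W. It is the C1q chain with the highest level, and its increase with time on the Western diet, 1.89 ± 0.30 or 3.70-fold (edgeR, adjusted p = 0.000129), was the largest among the members there. On the normal diet it rose by 1.66 ± 0.30 (edgeR, adjusted p = 0.000347). The groups of 22 and 6 weeks overlapped on neither diet, the lowest Sham22W library being at 79.1 CPM and the highest Sham6W library at 50.2 CPM. Between the diets the log2 fold change was 0.62 ± 0.29 at 22 weeks (edgeR, adjusted p = 0.346) and 0.39 ± 0.29 at 6 weeks (adjusted p = 0.716), with overlapping groups. Without AS6W replicate 3 the value at 6 weeks was 0.024.

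C1qc differed within the 22-week groups. It had 144, 96.0, 27.4 and 103 CPM in AS22W, against 20.5, 49.9, 18.9 and 57.8 CPM in Sham22W. At 6 weeks it had 28.3, 22.0, 50.1 and 23.6 CPM in AS6W, against 25.7, 32.9, 25.2 and 21.5 CPM in Sham6W. In 3 libraries of 22 weeks (AS22W replicate 3 and Sham22W replicates 1 and 3), C1qc was low while C1qb was not: the ratio of C1qc to C1qb CPM was 0.107 to 0.132 there and 0.545 to 0.696 in the other 13 libraries. The ratio of C1qa to C1qb did not set these libraries apart, at 0.559 to 0.598 in the 3 and 0.449 to 0.894 in the other 13. C1qa and C1qc summed were also low against C1qb in the 3 libraries, with a ratio of 0.684 to 0.730, against 1.07 to 1.56.

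The 3 C1q genes lie next to each other on the minus strand of chromosome 4 (GRCm38), and the locus that the authors' table names C1qa, at 136853422 to 136898803, spans those named C1qb (136880129 to 136886187) and C1qc (136889804 to 136893065). In the GENCODE annotation C1qa itself covers 136895917 to 136898803. The assignment of fragments between the 3 loci is therefore uncertain, and its part in the low C1qc values was not tested. With the counts of the 3 loci summed, which was chosen after seeing the data, C1q rose with time by 1.69 ± 0.25 on the Western diet (edgeR, adjusted p = 6.64e-05) and by 1.30 ± 0.25 on the normal diet (adjusted p = 0.000521). Summed C1q reached 394 ± 59.4 CPM in AS22W, 245 ± 49.7 in Sham22W, 123 ± 54.7 in AS6W and 99.4 ± 18.3 in Sham6W (SD, n = 4 each). Its diet difference was 0.69 ± 0.24 at 22 weeks (edgeR, adjusted p = 0.206) and 0.30 ± 0.24 at 6 weeks (adjusted p = 0.743).

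For C1qc alone, the diet difference at 22 weeks was 1.33 ± 0.45 with edgeR (adjusted p = 0.184) and 1.34 with DESeq2 (adjusted p = 0.0394), and it is the member whose diet call depended on the tool at that time. C1qc rose with time on the Western diet by 1.58 ± 0.45 (edgeR, adjusted p = 0.0104), with overlapping groups, and limma on the FPKM scale gave 1.16 with an adjusted p of 0.0521. On the normal diet its value was 0.48 ± 0.44 (edgeR, adjusted p = 0.393). Without the 3 libraries of low C1qc, which were picked by C1qc itself, it was 1.03 ± 0.29 (adjusted p = 0.0163). Without them the diet value at 22 weeks was 1.09 ± 0.33 (adjusted p = 0.303), beside 1.08 ± 0.36 for C1qb (adjusted p = 0.329). The Sham22W libraries left out, replicates 1 and 3, were the highest of that group for C1qb, at 155 and 177 CPM. Only replicates 2 and 4 remained there, at 79.1 and 101 CPM, so leaving the others out favours a higher diet value of C1qb.

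**Figure D2:**
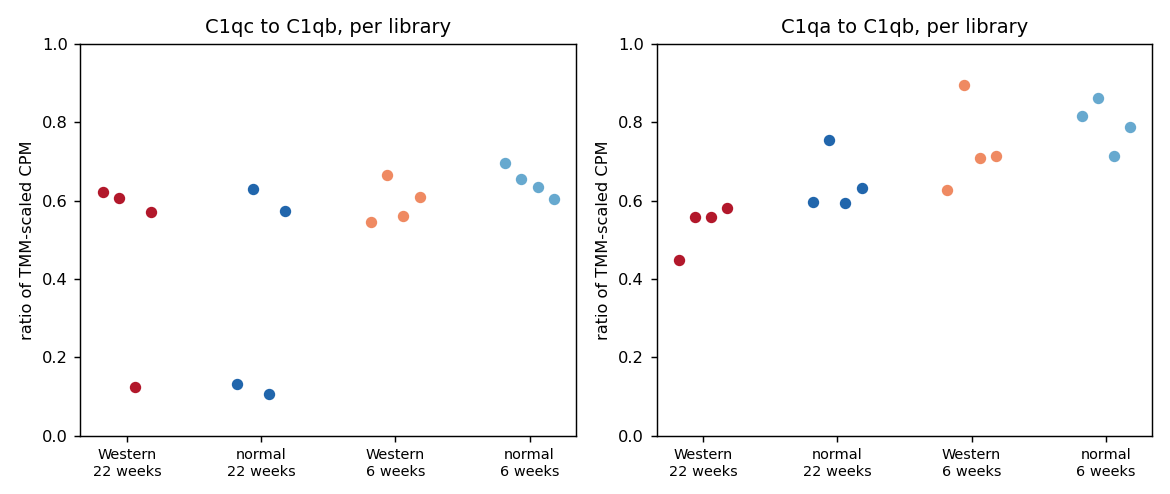
Ratios of C1qc to C1qb (left) and of C1qa to C1qb (right) in TMM-scaled CPM, a point for each library, by group. In the left panel 1 AS22W library and 2 Sham22W libraries sit at 0.107 to 0.132 and all other libraries at 0.545 to 0.696, whereas the right panel shows no such gap.

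The bases before the starts of C1qb and C1qc are shown because these neighbouring genes gave ratios that split in 3 libraries, with those of C3ar1, the other member known from myeloid cells, for comparison. They are the 250 bases before each RefSeq start (GRCm38.p6): chr4:136886201-136886450 on the minus strand for C1qb, chr4:136892915-136893164 on the minus strand for C1qc and chr6:122856158-122856407 on the minus strand for C3ar1, each written from 5′ to 3′ as transcribed. Capitals mark GAGGAA, the core recognised by the myeloid factor PU.1, or its reverse complement TTCCTC.
C1qb: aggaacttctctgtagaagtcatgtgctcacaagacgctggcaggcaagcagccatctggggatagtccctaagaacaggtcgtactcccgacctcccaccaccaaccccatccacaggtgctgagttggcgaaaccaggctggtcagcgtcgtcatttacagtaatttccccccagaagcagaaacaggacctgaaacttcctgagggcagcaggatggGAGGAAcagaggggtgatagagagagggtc
C1qc: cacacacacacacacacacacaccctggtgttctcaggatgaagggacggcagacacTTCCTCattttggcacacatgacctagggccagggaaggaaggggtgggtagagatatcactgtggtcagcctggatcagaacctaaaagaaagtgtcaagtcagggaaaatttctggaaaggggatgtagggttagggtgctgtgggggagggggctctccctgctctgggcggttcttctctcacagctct
C3ar1: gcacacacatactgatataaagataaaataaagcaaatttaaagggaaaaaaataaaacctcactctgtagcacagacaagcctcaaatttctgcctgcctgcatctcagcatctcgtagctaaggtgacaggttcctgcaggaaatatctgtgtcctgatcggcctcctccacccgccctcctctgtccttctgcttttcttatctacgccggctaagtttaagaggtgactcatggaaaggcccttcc
The core stands 30 bases before the RefSeq start of C1qb, and 193 bases before that of C1qc on the other strand, and these letters are not in the C3ar1 window. Among the 6 members with an entry (C1qb, C1qc, C1ra, C1s1, C3 and C3ar1; C1qa, C4b and Serping1 had none), these were the only 2 with the core, which 23.3% of all 32851 promoter windows of this length hold on either strand. The STAT motif TTCNNNGAA, in 7.02% of windows, and a consensus NF-kB motif, in 0.356%, were in none of the 6. The distances depend on the RefSeq starts. In GENCODE the C1qc gene begins at 136893065, inside its window, so part of these bases lies within the annotated gene. The RefSeq start used for C1qb matched no GENCODE transcript. A match of letters is a description and says nothing of binding in these aortas.

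C1ra and C1s1 encode the paired proteases of C1. The locus of C1ra on the plus strand of chromosome 6, 124512405 to 124581171, also carries the name of its near-copy C1rb and spans C1s1 on the opposite strand (124530345 to 124542321). The strand of the libraries is not given in the sources used here, so reads of C1ra, C1rb and C1s1 cannot be told apart with certainty. C1ra had 102, 80.8, 87.2 and 95.4 CPM in AS22W, against 85.1, 70.5, 86.6 and 66.5 CPM in Sham22W. It had 74.3, 54.2, 65.5 and 65.4 CPM in AS6W, against 57.3, 58.5, 70.2 and 60.7 CPM in Sham6W. All AS22W libraries lay above all AS6W libraries, while the normal-diet groups of 22 and 6 weeks overlapped.

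C1ra rose modestly with time, by 0.49 ± 0.12 on the Western diet (edgeR, adjusted p = 0.00363) and by 0.32 ± 0.12 on the normal diet (adjusted p = 0.037). On the FPKM scale neither call held, with limma values of 0.24 (adjusted p = 0.105) and 0.10 (adjusted p = 0.488). The normal-diet call was also lost when any of Sham22W replicates 1 and 3 or Sham6W replicates 1, 2 and 4 was left out, with values of 0.26 to 0.32 and adjusted p-values of 0.0735 to 0.117. C1s1 had 134, 113, 109 and 119.8 CPM in AS22W, against 102, 96.9, 128 and 119 CPM in Sham22W. It had 110.5, 94.0, 103 and 113 CPM in AS6W, against 94.6, 90.6, 108 and 97.4 CPM in Sham6W. The groups overlapped in each diet and each time comparison, and no comparison of C1s1 passed, the values with time being 0.18 ± 0.11 on the Western diet (edgeR, adjusted p = 0.184) and 0.19 ± 0.11 on the normal diet (adjusted p = 0.152), both below 0 on the FPKM scale. Of the near-copies, C1s2 was below the filter, at 0.520 ± 0.175 FPKM in AS22W, 0.584 ± 0.205 in Sham22W, 0.301 ± 0.130 in AS6W and 0.450 ± 0.110 in Sham6W.

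Serping1, on chromosome 2 (84765387 to 84775444, minus strand), was the steadiest member. It had 213, 178, 177 and 202 CPM in AS22W, against 241, 221, 209 and 208 CPM in Sham22W. It had 203, 184, 217 and 191 CPM in AS6W, against 201, 174, 212 and 183 CPM in Sham6W. Only 1 AS22W library lay within the Sham22W range, and the diet difference at 22 weeks was -0.19 ± 0.10 (edgeR, adjusted p = 0.384). With time the values were -0.05 ± 0.10 on the Western diet (edgeR, adjusted p = 0.73) and 0.19 ± 0.10 on the normal diet (adjusted p = 0.112). On the FPKM scale limma gave -0.29 on the Western diet, which passed as lower (adjusted p = 0.0307), and -0.02 on the normal diet, where the sign turned.

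C4b encodes the mouse C4 protein, whose cleaved form attaches to surfaces and builds the C3-cutting enzyme. Its locus is on chromosome 17 (34728380 to 34743882, minus strand). C4b had 665, 586, 537 and 672 CPM in AS22W, against 745, 613, 972 and 743 CPM in Sham22W. At 6 weeks it had 288, 187, 179.9 and 238 CPM in AS6W, against 138, 149, 176 and 154 CPM in Sham6W. All 22-week libraries lay far above all 6-week libraries, and C4b had the lowest adjusted p of the members in both time comparisons.

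C4b rose by 1.46 ± 0.17, or 2.76-fold, on the Western diet (edgeR, adjusted p = 6.92e-06) and by 2.32 ± 0.17, or 4.99-fold, on the normal diet (adjusted p = 1.86e-07). The diet values had opposite signs at the 2 times. At 6 weeks all AS6W libraries lay above all Sham6W libraries, as they did for 3.19% of loci (with 4.2% the other way), and the value was 0.53 ± 0.16 (edgeR, adjusted p = 0.223). At 22 weeks the groups overlapped and the value was -0.32 ± 0.16 (edgeR, adjusted p = 0.394). The difference between them, -0.86 ± 0.23, did not pass with edgeR (adjusted p = 0.151) and passed with DESeq2 (-0.85, adjusted p = 0.0316). Without the 3 libraries of low C1qc to C1qb ratio, which include 2 of the 4 Sham22W libraries, it was -0.61 ± 0.25 (adjusted p = 0.449).

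The near-copy C4a, on the same chromosome at 34809092 to 34823602, had a mean of 1.64 FPKM over all libraries, against 59.4 FPKM for C4b. C4a had 21.5, 18.4, 15.5 and 31.8 CPM in AS22W, against 23.1, 20, 23.5 and 25.6 CPM in Sham22W. It had 17.9, 7.68, 10.8 and 4.95 CPM in AS6W, against 8.88, 9.15, 3.58 and 10.5 CPM in Sham6W. C4a rose with time by 1.08 ± 0.36 on the Western diet (edgeR, adjusted p = 0.0253) and by 1.52 ± 0.37 on the normal diet (adjusted p = 0.00332). How the authors' counting split reads between C4a and C4b is not given in the sources used here.

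C3, on chromosome 17 (57203970 to 57228136, minus strand), had 1496, 1712, 1442 and 1526 CPM in AS22W, against 1498, 1125, 1919 and 1837 CPM in Sham22W. It had 1007, 895, 792 and 1110.5 CPM in AS6W, against 902, 1043, 977 and 914 CPM in Sham6W. Every 22-week library exceeded every 6-week library of its diet, while the diet groups overlapped at both times. C3 rose by 0.70 ± 0.16 on the Western diet (edgeR, adjusted p = 0.00209) and by 0.73 ± 0.16 on the normal diet (adjusted p = 0.00134), a 1.62-fold and a 1.66-fold difference. The diet values were -0.05 ± 0.16 at 22 weeks (edgeR, adjusted p = 0.932) and -0.01 ± 0.16 at 6 weeks (adjusted p = 0.993), and each became positive on the FPKM scale.

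C3ar1, on chromosome 6 (122847138 to 122856161, minus strand), had 46.7, 36.7, 41.9 and 40.9 CPM in AS22W, against 23.2, 13.1, 31.2 and 15.5 CPM in Sham22W. All AS22W libraries lay above all Sham22W libraries, as they did for 4.52% of loci, with 2.99% the other way. The log2 fold change was 1.0 ± 0.42 (edgeR, adjusted p = 0.292), and it was 1.0 ± 0.25 (adjusted p = 0.126) without AS6W replicate 3 and Sham6W replicate 2, which stand apart at 6 weeks. C3ar1 had 14.2, 9.33, 46.2 and 10.6 CPM in AS6W, against 12.8, 8.21, 12.9 and 8.69 CPM in Sham6W. Among the AS6W libraries replicate 3 was at the level of the 22-week Western-diet group.

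With all libraries C3ar1 did not pass with time, at 1.05 ± 0.42 on the Western diet (edgeR, adjusted p = 0.0565) and 0.96 ± 0.42 on the normal diet (adjusted p = 0.0744), although on the normal diet the groups did not overlap. It passed in both with DESeq2, with adjusted p-values of 0.0228 and 0.0385, as did 47.2% and 49.7% of the loci given an adjusted p. On the FPKM scale limma called C3ar1 higher on the Western diet alone. Without AS6W replicate 3 the Western-diet value was 1.87 ± 0.28 (edgeR, adjusted p = 0.000129). That library stands apart by C3ar1 itself, so leaving it out favours a higher value and a smaller spread. The diet value at 6 weeks was 0.92 ± 0.42 (edgeR, adjusted p = 0.458) and was -0.01 ± 0.28 without AS6W replicate 3 and Sham6W replicate 2.

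**Figure D3:**
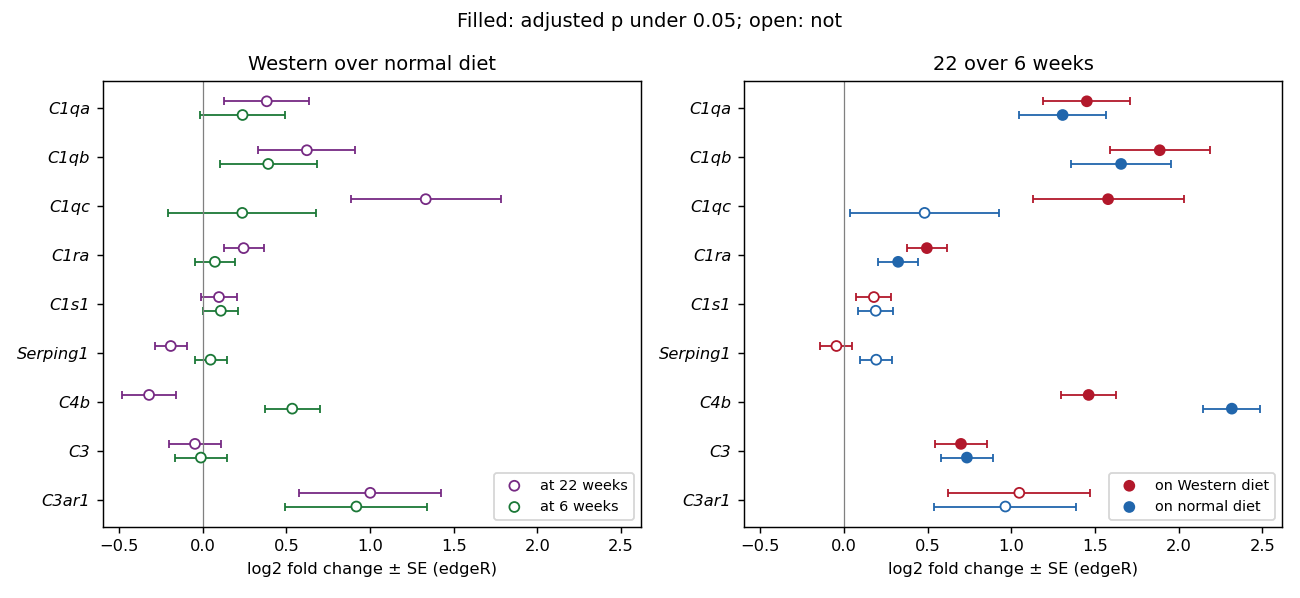
Log2 fold changes ± SE of the 9 members from edgeR, Western over normal diet at 22 and 6 weeks (left) and 22 over 6 weeks on each diet (right), with filled points for an adjusted p under 0.05. No point is filled on the left. On the right C1qa, C1qb, C1ra, C3 and C4b are filled for both diets and C1qc for the Western diet alone.

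Macrophages are the main source of C1q in tissue, and their markers moved in the same comparisons. Of 12 macrophage marker loci that are not complement genes, 6 rose and 1 fell with time on the Western diet, and 7 rose and 1 fell on the normal diet, with medians of 1.10 and 0.93. Of all loci, 21.9% rose and 21.9% fell on the Western diet, and 24% rose and 22.6% fell on the normal diet. The macrophage marker locus that fell, by 0.43 and 0.65 (edgeR, adjusted p = 0.0181 and 0.00109), joins Cd68 with Senp3, Eif4a1, Tnfsf12, Tnfsf13 and other names, so its value is not that of Cd68 alone. None passed for diet at either time with edgeR or DESeq2. At an unadjusted p under 0.05 there were 2 at 22 weeks and 1 at 6 weeks. Their summed level was 1832 to 2366 CPM in AS22W, 966 to 1809 in Sham22W, 925 to 1511 in AS6W and 914 to 1428 in Sham6W, and none was at 0 in all libraries. The 2 highest 6-week sums, 1511 and 1428 CPM, were those of AS6W replicate 3 and Sham6W replicate 2. Sham6W replicate 2 also had the highest 6-week sum of B cell markers, at 112 CPM.

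The ratio of summed C1q to the summed macrophage markers was 0.164 to 0.202 in AS22W, 0.123 to 0.195 in Sham22W, 0.0821 to 0.134 in AS6W and 0.0885 to 0.0935 in Sham6W. The 22-week values overlapped the 6-week values on neither diet. Without the Cd68 locus, which was left out after seeing the data, the ratio was 0.184 to 0.228 in AS22W, 0.137 to 0.242 in Sham22W, 0.131 to 0.161 in AS6W and 0.117 to 0.142 in Sham6W, so the times still did not overlap on the Western diet and overlapped on the normal diet. The part of macrophage number or content in the C1q and C3ar1 values was not tested.

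**Figure D4:**
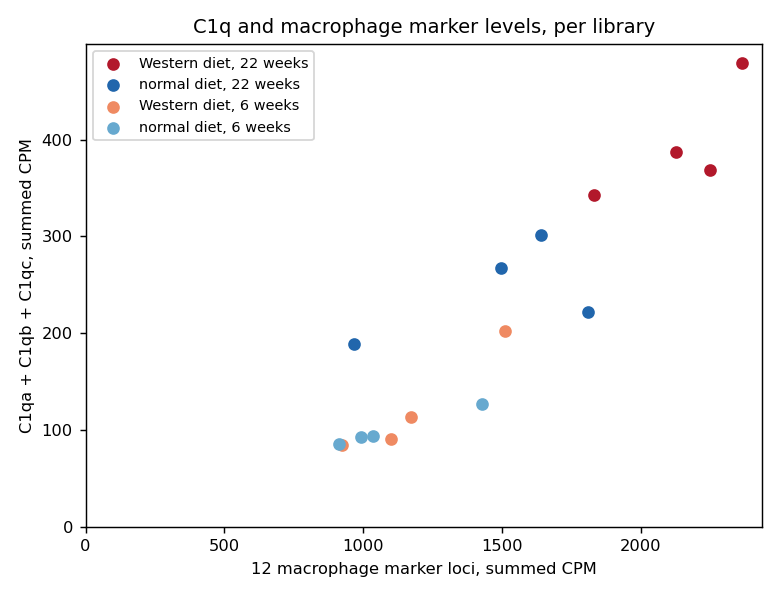
Summed CPM of C1qa, C1qb and C1qc (vertical axis) against the summed CPM of 12 macrophage marker loci, Cd68's joined locus included (horizontal axis), a point for each of the 16 libraries, coloured by group. The AS22W libraries lie at the upper right, from 1832 to 2366 CPM of macrophage markers, and the 6-week libraries at the lower left, apart from AS6W replicate 3 and Sham6W replicate 2 at 1511 and 1428 CPM.

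Markers of fibroblasts and liver, which make C3, C4 and the C1 proteases, also differed between the times. Of 12 fibroblast markers, 5 rose and 1 fell with time on the Western diet, and 6 rose and 1 fell on the normal diet. Of all loci, 43.8% passed on the Western diet (21.9% higher and 21.9% lower) and 46.7% on the normal diet (24% higher and 22.6% lower). The median log2 fold changes of the fibroblast markers were 0.23 and 0.40. Their sums were 9082 to 11245 CPM in AS22W, 9055 to 12484 in Sham22W, 5823 to 7335 in AS6W and 5202 to 6921 in Sham6W, so the times did not overlap. Of 8 hepatocyte markers, 6 fell with time on each diet, with medians of -4.38 on the Western diet and -4.45 on the normal diet, and Trf rose on the Western diet. Albumin (Alb) was at 3.06 ± 4.90 CPM in AS22W, 4.07 ± 6.79 in Sham22W, 104 ± 109 in AS6W and 148 ± 219 in Sham6W (SD, n = 4 each). Its libraries ranged from 2.84 to 256 CPM in AS6W and from 5.42 to 473 CPM in Sham6W. Apoa1, Apoa2, Ttr, Serpina1a and Fgb had means of 0.0766 to 0.361 CPM in AS22W and 0.228 to 0.529 CPM in Sham22W. These markers met the filter through 6-week libraries, where they were high, which favours a fall. None of the fibroblast or hepatocyte markers passed for diet with edgeR at either time. Their part in the C3 and C4b values was not tested.

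Calls with time for markers of other cell types are set beside the shares of all loci. On the Western diet 43.8% of loci passed (21.9% higher and 21.9% lower), and on the normal diet 46.7% (24% higher and 22.6% lower). Taken in either direction, the Western-diet counts of brown fat, endothelial and smooth muscle markers lay near that share. The normal-diet count of smooth muscle markers lay below it. Of 7 skeletal muscle markers, 4 rose with time on the Western diet and 5 fell on the normal diet, with sums of 27.2 to 250.4 CPM in AS22W, 6.93 to 36.1 in Sham22W, 3.05 to 60.6 in AS6W and 26.5 to 194 in Sham6W. Of 7 brown fat markers, 3 fell with time on the Western diet and 5 on the normal diet, with sums of 1393 to 3141 CPM in AS22W, 468 to 1237 in Sham22W, 1849.85 to 3544 in AS6W and 2207 to 3071 in Sham6W. The brown fat markers were also the only markers with a diet call: Cox8b at 22 weeks (1.65, edgeR adjusted p = 0.0367) and Dio2 at 6 weeks (1.47, adjusted p = 0.0192) and in the difference (-1.91, adjusted p = 0.0418). Of 8 adipocyte markers, 5 rose on the Western diet and 0 passed on the normal diet.

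Of 3 erythroid loci, 3 rose with time on the Western diet and 2 on the normal diet. Of 7 neutrophil markers, 2 loci were tested and both rose on both diets, S100a9 by 2.38 and 2.08 (edgeR, adjusted p = 0.0027 and 0.00555) and a locus that joins S100a8 with S100a6 and S100a7a by 1.37 and 1.70 (adjusted p = 0.0385 and 0.0131). The rest of the list did not meet the filter, and Ly6g, Mpo and Elane were under an FPKM of 1 in every library. Of 8 endothelial markers, 3 rose and 1 fell on the Western diet, and 3 rose and 2 fell on the normal diet. Of 8 smooth muscle markers, 1 rose and 3 fell on the Western diet, and 2 fell on the normal diet. Of the B cell markers 1 of 5 rose on the Western diet, and 0 of 7 T cell markers passed. Summed T cell and thymocyte markers were at 31.9 to 235 CPM in AS22W and 8.39 to 103 in Sham22W. At 6 weeks they were at 32.8 to 571 in AS6W and 17.6 to 47.4 in Sham6W. Summed B cell markers, in that order, were at 17.3 to 51.5, 9.18 to 181, 4.67 to 17.1 and 5.25 to 112 CPM. The T cell value of 571 CPM was from AS6W replicate 1. The B cell values of 181 and 112 CPM were from Sham22W replicate 4 and Sham6W replicate 2. The part of these cells in the members' values was not tested.

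Beyond the 9 members, 51 other complement genes were listed, of which 31 were tested in 28 distinct loci. No locus passed for diet at 22 weeks, at 6 weeks or in the difference with edgeR. At an unadjusted p under 0.05 there were 10, 6 and 8 of them, or 35.7%, 21.4% and 28.6%, beside 14.3%, 10.7% and 12% of all loci. DESeq2 called 5, 2 and 3 of the 28, beside the 4.17%, 2.26% and 2.56% given above. Of those at 22 weeks, 4 were higher on the Western diet and 1, Fcna, was lower, and those at 6 weeks were all lower. With time, 14 of the 28 loci rose and 3 fell on the Western diet, and 14 rose and 7 fell on the normal diet, with medians of 0.70 and 0.50. Of all loci, 21.9% rose and 21.9% fell on the Western diet, and 24% rose and 22.6% fell on the normal diet. On the FPKM scale limma called 12 of the 28 higher and 5 lower on the Western diet and 10 higher and 8 lower on the normal diet. The shares of all loci with limma were 15.2% higher and 33.4% lower, and 17.6% higher and 32.9% lower. Among the 28 loci the only sign that turned with time was that of C7 on the Western diet. Of the calls given below, those of Colec11 (0.37, adjusted p = 0.103) and C1rl (0.30, adjusted p = 0.112) on the Western diet were lost with limma. On the normal diet those of Clu (0.36, adjusted p = 0.134), Cd93 (0.12, adjusted p = 0.339), C1qbp (0.28, adjusted p = 0.0511) and Cfp (0.39, adjusted p = 0.0728) were lost. Without the 3 libraries of low C1qc to C1qb ratio the normal-diet counts were 10 and 7.

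In the initiating steps of the classical and lectin pathways, Fcna (ficolin A, a lectin of macrophages in mice) rose by 1.18 ± 0.33 on the Western diet and by 1.75 ± 0.34 on the normal diet (edgeR, adjusted p = 0.00949 and 0.000626). Its diet value at 22 weeks was -1.11 with edgeR (adjusted p = 0.139) and -1.10 with DESeq2 (adjusted p = 0.0329). Colec11, a collectin, rose by 0.77 ± 0.27 on the Western diet (adjusted p = 0.0332). C1rl, a protease related to C1r, rose by 0.61 ± 0.17 on the Western diet (edgeR, adjusted p = 0.00928) and fell by 0.50 on the normal diet (adjusted p = 0.0239). C1rl had 16.1, 19.7, 12.2 and 13.1 CPM in AS22W, against 12.1, 8.79, 14.2 and 12.9 CPM in Sham22W, and 9.97, 10.2, 10.7 and 9.24 CPM in AS6W, against 20.3, 17.4, 15.2 and 15.2 CPM in Sham6W. The AS6W libraries of C1rl all lay below the Sham6W libraries, as they did for 4.2% of loci. Its diet value at 6 weeks was -0.76 ± 0.17 (edgeR, adjusted p = 0.0959; DESeq2, 0.0035), and the difference between the times was 1.11 ± 0.24 (edgeR, adjusted p = 0.0869; DESeq2, 0.00193).

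In the alternative pathway, the locus of Cfb, which the table joins with C2 and Gm20547, rose by 0.83 ± 0.17 on the Western diet (edgeR, adjusted p = 0.000937) and by 1.17 ± 0.17 on the normal diet (adjusted p = 5.09e-05). Factor B and C2 are the paired enzymes of the alternative and classical C3-cutting complexes, and their reads were not separated. The locus of Cfp (properdin, which stabilises that enzyme), joined with Elk1 and Uxt, rose by 0.72 ± 0.18 and 0.68 ± 0.18 (adjusted p = 0.00518 and 0.00731). Cfd, the factor D protease made abundantly by fat cells, had 511, 1056, 757 and 428 CPM in AS22W, against 498, 319.7, 859 and 719.9 CPM in Sham22W, and 499.7, 292, 314 and 568 CPM in AS6W, against 250.4, 230.5, 207 and 197 CPM in Sham6W. At 6 weeks all AS6W libraries lay above all Sham6W libraries, as for 3.19% of loci, with a value of 0.92 ± 0.32 (edgeR, adjusted p = 0.291). Cfd rose with time on the normal diet by 1.44 ± 0.32 (edgeR, adjusted p = 0.00198). The summed adipocyte markers at 6 weeks overlapped, at 2694 to 3944 CPM in AS6W and 2994 to 3802 CPM in Sham6W. Of the terminal pathway, C7 rose on the normal diet by 0.50 ± 0.12 (edgeR, adjusted p = 0.0025).

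Among regulators, Clu (clusterin, which blocks the assembly of the terminal complex) rose by 1.05 ± 0.20 on the Western diet and 0.60 ± 0.19 on the normal diet (edgeR, adjusted p = 0.000515 and 0.0195). Cpn2, a subunit of the enzyme that inactivates C3a, fell by 0.86 on the normal diet (adjusted p = 0.0267), and the difference of its diet effects was 1.61 ± 0.42 (edgeR, adjusted p = 0.14; DESeq2, 0.0141). Of 6 membrane regulators, 1 rose and 2 fell on the Western diet, and 1 rose and 4 fell on the normal diet. Cd46 fell by 1.19 and 1.30 on the Western and normal diets (edgeR, adjusted p = 2.17e-06 and 8.84e-07). Its mean was 0.581 FPKM in AS22W and 0.659 in Sham22W, against 1.58 in AS6W and 1.88 in Sham6W. Cd46 thus met the filter of FPKM 1 in 4 libraries through the 6-week groups alone, which favours a fall. Cr1l, the mouse regulator Crry, fell by 0.61 and 0.84 (adjusted p = 0.00112 and 7.18e-05).

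Cd59a and Cd59b encode inhibitors of the membrane attack complex. With time their values were -0.17 ± 0.21 and -0.21 ± 0.21 on the Western diet, and they fell by 0.98 and 1.70 on the normal diet (edgeR, adjusted p = 0.00164 and 1.8e-05). The difference of the diet effects for Cd59b was 1.49 ± 0.30 (edgeR, adjusted p = 0.071; DESeq2, 0.000773), made up of 0.73 ± 0.22 at 22 weeks (edgeR, adjusted p = 0.137) and -0.76 ± 0.21 at 6 weeks (adjusted p = 0.181). Cd59b was near the filter, at 2.0 to 3.19 CPM in AS22W, 1.29 to 1.73 CPM in Sham22W, 2.53 to 3.22 CPM in AS6W and 3.02 to 5.92 CPM in Sham6W. Csmd1, a large membrane regulator, rose by 1.16 ± 0.30 and 1.73 ± 0.31 (edgeR, adjusted p = 0.00581 and 0.000312). Its mean was 0.686 FPKM in AS6W and 0.592 in Sham6W, against 1.31 in AS22W and 1.71 in Sham22W. Csmd1 met the filter mainly through the 22-week groups, which favours a rise.

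Of the receptors, Itgax, the alpha chain of complement receptor 4 on macrophages and dendritic cells, had 61.0, 47.1, 51.7 and 44.6 CPM in AS22W, against 23.9, 8.93, 28.2 and 14.4 CPM in Sham22W. It had 9.98, 3.61, 3.55 and 3.98 CPM in AS6W, against 3.79, 6.20, 5.16 and 2.69 CPM in Sham6W. The AS22W libraries lay above all others. Of all loci, 4.52% had AS22W wholly above Sham22W and 20.1% had AS22W wholly above AS6W. The mean of Itgax was 0.972 FPKM in AS6W and 0.787 FPKM in Sham6W, so it met the filter mainly through 22-week libraries. Itgax rose with time by 3.27 ± 0.41 on the Western diet and 2.08 ± 0.39 on the normal diet (edgeR, adjusted p = 1.7e-05 and 0.000547). Its diet value at 22 weeks, 1.44 ± 0.38, had the lowest p of these loci there (edgeR, adjusted p = 0.111; DESeq2, 0.00772; limma on FPKM, 0.0487, with which 0.606% of all loci passed).

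Its partner chain Itgb2 rose by 1.43 ± 0.45 and 1.67 ± 0.45 with time on the Western and normal diets (edgeR, adjusted p = 0.0173 and 0.00705). C5ar1, the receptor of C5a, rose by 1.19 ± 0.23 and 1.35 ± 0.23 (adjusted p = 0.000693 and 0.000241). Lrp1, an endocytic receptor, rose by 1.01 ± 0.13 and 1.03 ± 0.13 (adjusted p = 2.69e-05 and 1.92e-05), and C1qbp, a mostly mitochondrial protein that binds C1q, by 0.90 ± 0.14 and 0.51 ± 0.13 (adjusted p = 8.22e-05 and 0.00639). Cd93, once proposed as a C1q receptor, rose by 0.68 ± 0.11 and 0.34 ± 0.11 (adjusted p = 0.000187 and 0.0198), and Calr, the chaperone calreticulin, fell by 0.61 on the normal diet (adjusted p = 0.000181). The diet values at 22 weeks of Cd93 and Calr were 0.41 ± 0.11 (edgeR, adjusted p = 0.116; DESeq2, 0.0248) and 0.36 ± 0.10 (edgeR, adjusted p = 0.127; DESeq2, 0.0288).

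**Figure D5:**
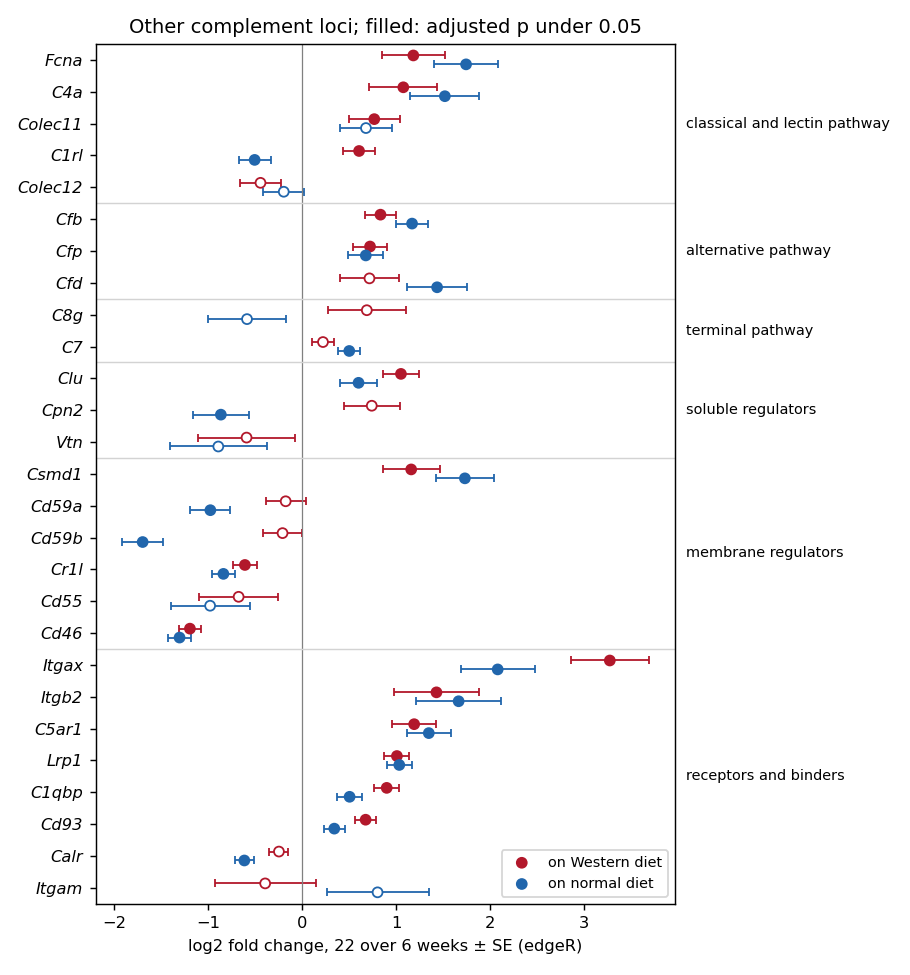
Log2 fold changes ± SE of 22 over 6 weeks from edgeR for other complement loci, on the Western diet (red) and the normal diet (blue), grouped by role, with filled points for an adjusted p under 0.05. Itgax lies farthest to the right, at 3.27 on the Western diet, and Cd59b farthest to the left, at -1.70 on the normal diet.

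The loci with the profile most like each member were sought among 18237 loci naming 1 gene, by the root mean square distance of log2 CPM over the 16 libraries after centring each profile, where a smaller distance is a closer profile. For C1qa they were Tlr13 (0.19), Tcirg1 (0.19) and Tgfb1 (0.23), and for C1qb Wfdc17 (0.23), Pltp (0.23) and C1qa (0.26). C3ar1 was closest to Ms4a7 (0.28), Tyrobp (0.37) and Ms4a6d (0.40). No profile came as close to C1qc, for which Vsir stood at 0.57, Tent5c at 0.59 and Nfam1 at 0.59. C4b was closest to Zbtb11os1 (0.22), Tradd (0.26) and Adamts4 (0.26), and C3 to Nol6 (0.11), Thoc6 (0.12) and 1700052K11Rik (0.15). The closest to C1ra, C1s1 and Serping1 were Rab31 (0.12), Rbm15 (0.11) and Sntb2 (0.09), but these members vary little, with SDs of log2 CPM of 0.27, 0.16 and 0.13, so many loci lie near them.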

How the data were processed

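Total RNA of the aorta was sequenced in 16 libraries, 4 in each of 4 groups, and columns were matched to groups by sample title, since 1 sample description points to the column of another replicate. Per the file headers, the authors deposited 1 table with an FPKM value and an estimated count for each locus and library. The tools named in the submitters' processing notes are cutadapt 1.9 (read trimming) and FastQC (read quality), with the build GRCm38. The aligner, counter and annotation were not given in the sources used here. All deposited estimated counts were whole, yet 35277 of them were 4 while 14716 were 3 and 9394 were 5, so a count may not be 1 fragment. This was not tested, and counts divided by 4 were tried as an alternative. Deposited FPKM values were 1e-04 wherever the count was 0.

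Loci that name no gene (3714, with 0.606% of the counts) entered neither the library sizes nor the tests. The tested loci, 24091 with 98.6% of the counts, were those that reached an FPKM of 1 in 4 libraries or more. A gene name was read by splitting joined names, and the locus of highest mean FPKM was used. The main test was edgeR 4.0.16 (R 4.3.3), quasi-likelihood, with trimmed mean of M-values (TMM) scaling, 4 group means over all 16 libraries, two-sided, with Benjamini-Hochberg adjustment over all tested loci. The SE is the fold change divided by the root of the F statistic. Its procedure was tested on simulated data. Levels within a gene are TMM-scaled CPM, and FPKM compares genes. Alternatives were limma 3.58.1 on log2(FPKM + 0.5) or log2(FPKM + 0.1), whose fold changes understate low genes, DESeq2 1.42.0, RLE scaling, no filter, an FPKM minimum of 5, the 8 compared libraries alone, a replicate block, counts summed over the loci of a gene, and leaving out each library. A further 4 alternatives were chosen after seeing the data: the C1q loci summed, the Cd68 locus left out of the macrophage sums, the libraries of low C1qc to C1qb ratio left out, and AS6W replicate 3 with Sham6W replicate 2 left out.

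The members, the lists of other complement genes and the cell type markers were chosen with earlier results of these data known. All members were named, other complement genes when they passed in any comparison or were among the 3 of lowest p in one, the near-copies C4a, C1rb and C1s2 always, and the 3 loci of closest profile for each member. A locus of the lists enters their counts and is otherwise not reported here. Promoter windows came from RefSeq (GRCm38.p6), and gene positions from the table and GENCODE.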

Additional observations from a re-analysis of the deposited data

Results flagged for a closer look

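In 148 groups of 4 libraries, from the 37 complement loci tested in each of the 4 groups, 10 held a library whose distance from its nearest neighbour made up more of the group's range than Dixon's test allows at its 95% level. Chance flags about 1 group in 20. In AS6W, replicate 3 stood apart for C1qa, at 63.2 CPM against 27.7 to 32.7 CPM in the other 3, for C3ar1, at 46.2 CPM against 9.33 to 14.2 CPM, and for Itgam, the alpha chain of complement receptor 3, at 97.2 CPM against 11.3 to 16.2 CPM. In Sham6W, replicate 2 stood apart for C1qa, at 43.3 CPM against 28.1 to 30.1 CPM, for Fcna, at 5.36 CPM against 3.31 to 3.65 CPM, and for Cfp, at 46.3 CPM against 33.9 to 34.5 CPM. It also stood apart for Cd55, a membrane regulator, at 87.5 CPM against 27.2 to 28.8 CPM, and for Itgam, at 19.2 CPM against 14.4 to 14.9 CPM. Itgax was high in AS6W replicate 1, at 9.98 CPM against 3.55 to 3.98 CPM. Cd93 was high in AS22W replicate 2, at 209 CPM against 166 to 171 CPM. The summed macrophage markers were also highest of their groups in AS6W replicate 3, at 1511 CPM, and in Sham6W replicate 2, at 1428 CPM. Summed B cell markers stood out in Sham6W replicate 2 too, at 112 CPM against 5.25 to 12.5 CPM in the rest of its group. The part of macrophages and B cells in these values was not tested.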

How the results depend on the processing

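The member counts for diet stayed at 0 under all alternatives run except DESeq2, which called 1 member at 22 weeks and 1 in the difference of the diet effects. With time, 6 to 7 members passed on the Western diet and 4 to 6 on the normal diet. With limma (pseudocount 0.5) those on the Western diet included C3ar1 and, as lower, Serping1, but not C1qc or C1ra. The calls of C1qa, C1qb, C3 and C4b with time held under every alternative run, on both diets. The number of loci passing for diet moved much more, and the cause was not tested except where fewer libraries or loci entered. At 22 weeks it was 55, against 828 with DESeq2, 12 with no filter, 146 and 140 with limma (pseudocounts 0.5 and 0.1), 0 with the 8 libraries alone and 0 to 429 with 1 library left out (0 without Sham22W replicate 2, 429 without Sham22W replicate 4). At 6 weeks it was 68, against 459 with DESeq2 and 30 to 74 with 1 library left out. For the difference it was 44, against 497 with DESeq2, 26 with no filter, 26 with limma (0.1) and 3 to 74 with 1 library left out. With an FPKM minimum of 5, which tests fewer loci, 3936 loci passed with time on the Western diet and 4101 on the normal diet, against 10561 and 11247.

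The replicate numbers do not pair the libraries: same-numbered libraries correlated at -0.20 to 0.12 in their deviations from the group means, and 3 of 16 correlated best with their own number. With a replicate block, 0 loci passed for diet at 22 weeks, 12 at 6 weeks and 0 in the difference. Under the block C3ar1 passed with time on the Western diet (1.40, edgeR adjusted p = 0.00846) and on the normal diet (0.91, adjusted p = 0.0406), and C1qc did not on the Western diet (1.53, adjusted p = 0.0517).

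The signs that turned belonged to values that did not pass in the reported test. With limma (0.5 and 0.1), C3 was at 0.0017 at both pseudocounts for diet at 22 weeks and 0.036 at both for diet at 6 weeks, C1s1 at -0.066 and -0.067 with time on the Western diet and -0.025 at both on the normal diet, and Serping1 at -0.015 at both with time on the normal diet. With an FPKM minimum of 5, C3 was at 0.0059 for diet at 6 weeks and C3ar1 at -0.022 for the difference. With no filter, C1s1 was at 0.0020 for the difference. With libraries left out singly or as AS6W replicate 3 with Sham6W replicate 2, the ranges were -0.116 to 0.408 for C1qa, -0.0950 to 0.365 for C1qc, -0.0943 to 0.110 for C3, -0.00854 to 1.15 for C3ar1 and -0.0449 to 0.0948 for Serping1 in the diet comparison at 6 weeks. They were -0.166 to 0.0809 for C3 in that at 22 weeks, and -0.0964 to 0.0102 for Serping1 with time on the Western diet. For the difference they were -0.0256 to 0.498 for C1qa, -0.0732 to 0.0791 for C1s1, -0.163 to 0.0840 for C3 and -0.1398 to 1.01 for C3ar1. Without the 3 libraries of low C1qc to C1qb ratio, C3 was at 0.10 for diet at 22 weeks and 0.11 for the difference, and C1s1 at 0.0780 for the difference. A p that misses the threshold does not show that the diets act alike.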
